A study of Mus musculus with 12 samples.

Results

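The genes described here are the cytosolic ribosomal protein genes, the proteins of the large (Rpl) and small (Rps) ribosomal subunits, in group 2 innate lymphoid cells (ILC2s) of mouse lung. They were chosen by name, as protein-coding rows whose symbol is Rpl or Rps followed by a digit, or Rplp0, Rplp1, Rplp2 or Rpsa, without the S6 kinases. The rule found 90 of the 18601 rows in the table of KO and WT libraries and 87 of the 21361 rows in the table of LAIR-1- and LAIR-1+ libraries, and all 87 were among the 90. In both tables the rows comprise 43 proteins of the large subunit, 31 of the small subunit and 3 of the stalk (Rplp0, Rplp1 and Rplp2). A further 5 rows are paralogs of a core gene (Rpl22l1, Rps27l, Rpl36al, Rpl7l1 and Rpl39l), 7 and 4 rows are retrocopies (processed copies of a ribosomal protein mRNA set back into the genome) listed as protein-coding, and 1 row, Rps19bp1, is named for binding Rps19 and is no ribosomal subunit. All 3 retrocopy rows found in the first table alone differ by name or listing: Rps18-ps5 and Rps18-ps6 stand as protein-coding Gm11361 and Gm10260 in the second table, and the position of Rps23rg1 has no row there.

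Each ribosome carries a single copy of nearly every one of these proteins, so their mRNAs are made in matched amounts and are among the most abundant in growing cells. Their mRNAs begin with a run of pyrimidines, the 5′ terminal oligopyrimidine (TOP) tract, through which the kinase mTORC1 and its RNA-binding partner LARP1 adjust their translation, and MYC raises the transcription of ribosomal protein and ribosome assembly genes. In activated lymphocytes, ribosome production grows along with cell size before division.

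The series asks what the collagen-binding inhibitory receptor LAIR-1 does in activated ILC2s. Lung ILC2s of 8-week-old C57BL/6 mice that had received 3 intranasal doses of 0.5 µg IL-33 were sorted and then cultured in IL-2 and IL-7, each at 10 ng/mL, over 24 hours. This holds for all 4 groups of 3 libraries: LAIR-1 KO cells, LAIR-1- cells and LAIR-1+ cells, both labelled WT in genotype and separated by LAIR-1, and WT cells, for which no sort on LAIR-1 is named. KO was set against WT and LAIR-1- against LAIR-1+, each within its own table, since they were deposited as separate tables. The labels do not say whether libraries of a group came from separate mice, so p-values measure only the spread between libraries, which may be technical. All groups had both IL-33 and the culture, so none stands for resting cells.

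Library totals were 18061470 to 20878649 estimated counts in KO and WT, and 18885002 to 28290487 in the sorted fractions. Lair1 was at 0 to 3.28 CPM in KO and 3.75 to 11.1 CPM in WT libraries, and at 0.577 to 1.95 CPM in LAIR-1- and 8.71 to 12.4 CPM in LAIR-1+ libraries (CPM, counts scaled to a common library total). All 8 ILC2 markers had a row, with a summed level of 10839 to 13047 CPM in KO, 7996 to 8807 CPM in WT, 6421 to 6870 CPM in LAIR-1- and 6812 to 7671 CPM in LAIR-1+ libraries. Markers of other cells moved with the groups: 6 of 7 epithelial markers summed to 18.1 to 34.7 CPM in KO and 49.1 to 131 CPM in WT, 6 of 6 mast cell and basophil markers to 91.5 to 132 CPM in LAIR-1- and 260 to 333 CPM in LAIR-1+, and 6 of 7 macrophage and monocyte markers to 6.40 to 36.7 CPM in LAIR-1- and 62.8 to 159 CPM in LAIR-1+ libraries. Fibroblast and endothelial markers (1 of 7 with a row, then 3 of 7) summed to 24.3 to 44.9 CPM in KO and 18.9 to 22.6 CPM in WT, and to 38.6 to 41.3 CPM in LAIR-1- and 23.0 to 26.5 CPM in LAIR-1+ libraries. The sum in KO and WT libraries is that of Pecam1 alone. The endothelial markers Cdh5 and Kdr had no row in either experiment. In the sorted fractions the sums also differed without overlap for T cell markers (65.8 to 83.6 CPM in LAIR-1- and 53.8 to 64.6 CPM in LAIR-1+), B cell markers (11.8 to 14.3 and 6.95 to 10.8 CPM), NK cell and ILC1 markers (1.21 to 3.28 and 3.85 to 7.09 CPM) and epithelial markers (25.5 to 33.8 and 35.7 to 114 CPM, each LAIR-1- before LAIR-1+). The part of other cells in the results below was not tested. Mitochondrial genes held 0.416% of counts in WT 11, where the other 5 libraries of its experiment had 0.736% to 0.822%.

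The ribosomal protein rows together took shares of all counts that overlapped between the groups compared. The share was 1.51%, 1.45% and 1.53% in the KO libraries, against 1.40%, 1.51% and 1.29% in the WT libraries. Its mean was 1.497% ± 0.0453 in KO and 1.401% ± 0.113 in WT (SD in percentage points, n = 3 each). In the other experiment it was 3.67%, 4.03% and 3.39% in LAIR-1- libraries, against 3.36%, 3.20% and 3.69% in LAIR-1+ libraries, with means of 3.70% ± 0.322 and 3.42% ± 0.247 (SD, n = 3 each). In bulk RNA a smaller share of one cell type and less of an mRNA per cell cannot be told apart. Set side by side, the sorted libraries gave these genes more than the KO and WT libraries did, a gap that lies between separate tables and was not tested.

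Much of that gap lay in rows of copies similar in sequence. The mouse genome holds many processed pseudogenes of ribosomal protein mRNAs, and reads shared between a gene and a copy have to be assigned to 1 of them or divided between them. A copy was taken here as any other gene with an annotated pseudogene or protein-coding transcript that met 1 limit. At least 50% of its 31-base words had to lie in protein-coding transcripts of a ribosomal protein gene. Some copies lay near that limit, such as the protein-coding RPS10-NUDT3 at 52.0%. Of the 82 ribosomal protein genes looked at, 67 had at least 1 such copy with a row in the KO and WT table (222 copy rows) and 68 in the sorted table (273 copy rows). The copies held 51.3% to 51.9% of the counts of genes and copies together in the KO and WT libraries, but 9.27% to 9.40% in the sorted libraries. With copies added, genes and copies took 2.84%, 2.72% and 2.88% of counts in KO and 2.63%, 2.84% and 2.42% in WT libraries, and 4.04%, 4.44% and 3.73% in LAIR-1- and 3.70%, 3.52% and 4.05% in LAIR-1+ libraries. Within each experiment this pooled split was nearly constant from library to library, so the pooled split differed between the tables and not between the groups compared. For single genes the split varied more among the KO and WT libraries. The gene's own row kept 0.672% to 1.60% for Rps27, 3.20% to 8.47% for Rps12 and 1.44% to 3.54% for Rpl10.

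**Figure D1:**
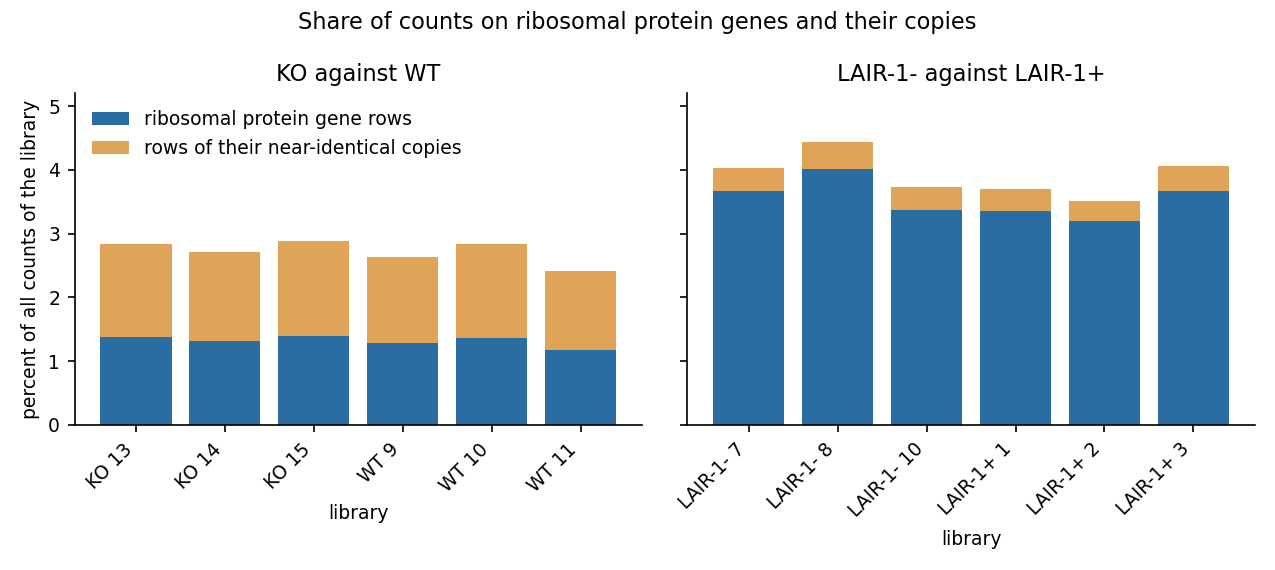
Percent of each library's counts (vertical axis) on the ribosomal protein genes (blue) and on their near-identical copies (orange), for the KO and WT libraries (left) and the LAIR-1- and LAIR-1+ libraries (right). Copies hold 51.3% to 51.9% of the combined bar on the left and 9.27% to 9.40% on the right.

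Rps27, a small subunit protein with a zinc finger, showed the split most plainly. Rps27 kept 0.672% to 1.60% of the counts of itself and its copies in the KO and WT libraries and 92.6% to 93.2% in the sorted libraries. Its retrocopy Rps27rt is a protein-coding row on chromosome 9 (114982366 to 114982740, minus strand, mm10), while Rps27 lies on chromosome 3 (90212522 to 90213652, minus strand). The coding sequences of both are 255 bases long and differ at 0 positions. The first 90 coding bases are shown to make that identity visible, read from GENCODE M21 transcripts:
Rps27: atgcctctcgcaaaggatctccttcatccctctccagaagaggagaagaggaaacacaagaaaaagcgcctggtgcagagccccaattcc
Rps27rt: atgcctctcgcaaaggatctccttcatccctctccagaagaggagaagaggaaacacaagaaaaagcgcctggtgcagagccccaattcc

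No read that lies within the coding sequence can tell these 2 rows apart. Rpl10, a large subunit protein at the subunit interface, and Rpl10-ps3 are also identical over 645 coding bases, and Rpl9 and Rpl9-ps6 differ at 1 of 579. Rpl10 kept 1.44% to 3.54% of its family's counts in KO and WT libraries and 95.5% to 96.7% in the sorted libraries. The paralog Rpl36al differs from Rpl36a at 39 of 321 coding bases. Their first 90 coding bases follow, with the differing bases in capitals:
Rpl36a: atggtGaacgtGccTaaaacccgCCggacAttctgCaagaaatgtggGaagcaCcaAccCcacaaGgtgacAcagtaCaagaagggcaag
Rpl36al: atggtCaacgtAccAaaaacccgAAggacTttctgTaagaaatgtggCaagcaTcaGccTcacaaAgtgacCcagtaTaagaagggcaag

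In the KO and WT libraries, 49 of the 67 genes with copies there kept under 50% of their family's counts in every library, and the median gene kept 35.5%. In the sorted libraries 3 genes did (Rpl26, Rpl29 and Rpl35a), and the median gene kept 93.5%. The split ran the other way, without overlap, for 5 genes. Rpl26 kept 27.1% to 29.6% in the sorted libraries and 60.0% to 63.7% in KO and WT, and Rpl29 kept 36.2% to 39.4% in the sorted libraries and 79.2% to 82.7% in KO and WT. Rps2 (57.1% to 57.7% against 71.5% to 72.4%), Rplp0 (71.2% to 72.1% against 88.4% to 88.8%) and Rpl21 (80.4% to 81.9% against 85.1% to 90.7%) also kept less in the sorted libraries than in KO and WT. Across 81 genes, the log2 ratio of the sorted to the KO and WT level had an SD of 1.58 when a gene's own row was used and 0.37 when copies were added. Its rank correlation with the percent of a gene's 31-base words found in copies was 0.45 for own rows and -0.03 with copies added, as a description over 81 genes that share the same libraries. Levels of single genes are not compared across the 2 tables below.

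**Figure D2:**
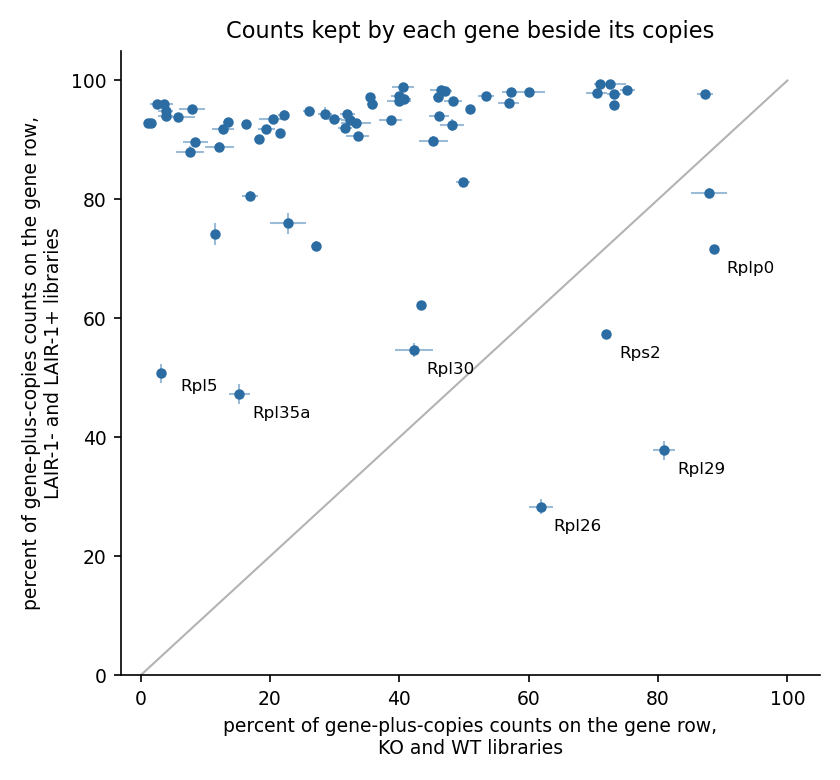
For each gene with copies, the percent of gene-plus-copies counts on the gene's own row in KO and WT libraries (horizontal axis) and in LAIR-1- and LAIR-1+ libraries (vertical axis). Points are the middle of the range over 6 libraries and bars the range, and the grey line marks equal percents. Most genes lie far above the line, while Rpl26, Rpl29, Rps2, Rplp0 and Rpl21 lie below it.

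Levels per coding length, taken from the longest annotated coding sequence, differed widely among the genes within each table. All counts of a gene's row, also those outside the coding sequence, were divided by coding length alone. This raises the values of genes with short coding sequences, such as Rpl41 (141 bases), so the order is not one of plain CPM. In the sorted libraries Rpl41, a very short basic protein, had the highest level, 5893 ± 726 CPM per coding kilobase in LAIR-1- and 5251 ± 504 in LAIR-1+ libraries (SD, n = 3 each). Next came Rps29, with 2924 ± 249 in LAIR-1- and 2753 ± 196 in LAIR-1+, and Rpl37a, with 2819 ± 305 and 2654 ± 247 CPM per coding kilobase (SD, n = 3 each, LAIR-1- before LAIR-1+). Their means over the 6 libraries, 2839 and 2737 CPM per coding kilobase, lay closer than either SD. The lowest was Rpl39l, a paralog known from the testis, with 5.42 ± 2.60 CPM per coding kilobase in LAIR-1- and 6.17 ± 2.77 in LAIR-1+. It was followed by Rpl29 and Rpl26, whose reads went mostly to copies there. In KO and WT libraries Rpl41 again led, with 2790 ± 71.0 in KO and 2528 ± 533 CPM per coding kilobase in WT, ahead of Rplp0 (1150 ± 53.0 in KO and 1035 ± 68.3 in WT) and Rpl32 (1115 ± 54.1 in KO and 1050 ± 66.3 in WT). The lowest of the tested rows there were Rps12, Rps27 and Rpl9, at 9.10, 10.6 and 11.01 CPM per coding kilobase over the 6 libraries, and they kept at most 8.47%, 1.60% and 2.31% of their families' counts. Rpl39l, with too few counts to be tested there, was at 0.686 CPM per coding kilobase, scaled by library totals alone.

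Between KO and WT, no ribosomal protein row passed the test, and most lay slightly above 0. Of 90 rows 88 had enough counts to be tested; Rpl39l and Rps23rg1 did not. By the edgeR quasi-likelihood test with Benjamini-Hochberg adjustment over 14164 genes, 0 of 88 rows passed at 0.05 in either direction, where 0.00706% of all genes tested passed. DESeq2 called 0 of the 76 rows to which it gave an adjusted p, where 4.22% of all genes with one passed, and 6 rows had an unadjusted p under 0.05, where 10.2% of all genes did. By edgeR without adjustment, 5 of the 88 rows had p under 0.05, or 5.68%, against 8.37% of all genes, and all 5 were higher in KO, where 3.97% of all genes were. The log2 fold change (KO over WT) was above 0 for 74 of 88 rows, with a median of 0.10, where it was above 0 for 50.4% of all genes, with a median of 0.00. The large subunit rows had a median of 0.11 (36 of 43 above 0), the small subunit rows 0.14 (28 of 31) and the 6 tested retrocopies 0.05 (4 of 6). The 95% interval lay within 1.5-fold in both directions for 66 of the 88 rows.

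The spread behind that median came from single libraries as well as groups. Relative to each gene's mean over the 6 libraries, the median row lay at 0.04, 0.01 and 0.10 (log2) in the KO libraries, against -0.04, 0.05 and -0.17 in the WT libraries. In WT 11, where mitochondrial genes held least, 5 of 88 rows were above their own mean, and in KO 15 it was 82 of 88. Without WT 11 the median log2 fold change was 0.04, with 53 of 88 rows above 0 (51.1% of all genes in that fit) and 0 at an unadjusted p under 0.05 (10.6% of all genes). The groups did not overlap, with KO higher, for 14 of 88 rows, or 15.9%, where 8.2% of all genes did so. With KO lower it was 0 rows, where 7.97% of all genes did so.

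**Figure D3:**
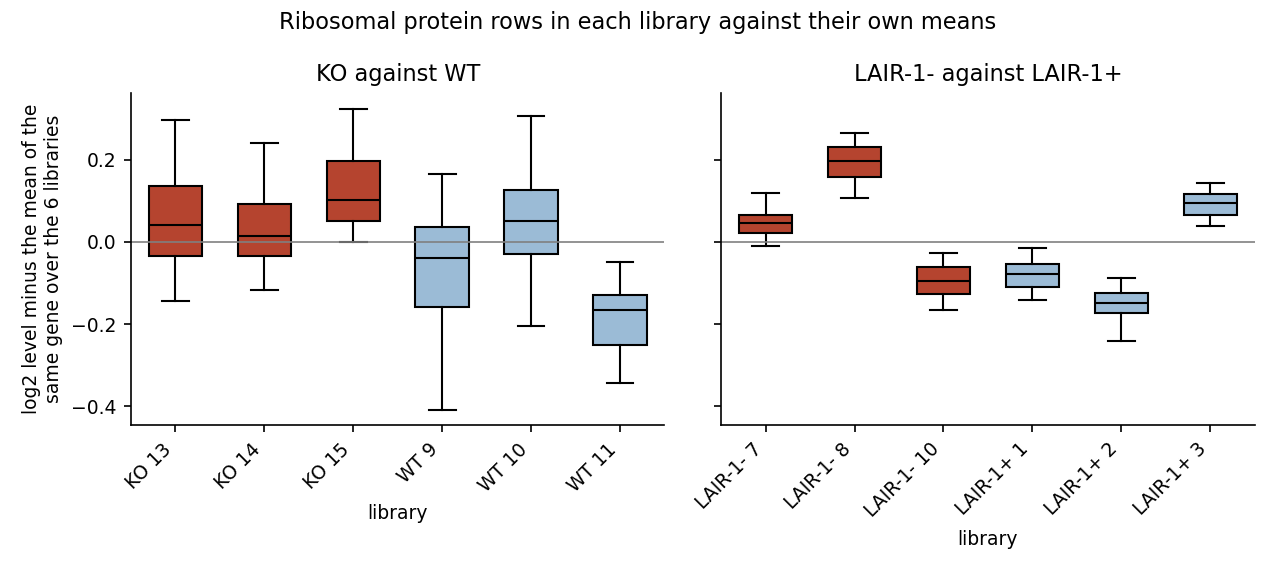
Log2 level of the ribosomal protein rows minus the same row's mean over the 6 libraries of its experiment (vertical axis), by library. Boxes are quartiles with the median as a line, whiskers reach the 5th and 95th percentiles, and colours mark KO and LAIR-1- (red) and WT and LAIR-1+ (blue). WT 11 lies lowest on the left, and on the right LAIR-1- 8 lies highest and LAIR-1+ 2 lowest.

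The rows with the smallest p in this comparison were Rpl7, Rps25, Rps26, Rps15a and Rps27l. Rpl7, a large subunit protein that binds RNA, was at 309, 281 and 274 CPM in KO libraries, against 245, 254 and 236 CPM in WT libraries. These groups did not overlap. Its log2 fold change was 0.23 ± 0.083 (SE, adjusted p = 0.519 by edgeR). Rps26, a small subunit protein near the mRNA exit, was at 128, 123 and 138 CPM in KO and 117, 100.5 and 95.9 CPM in WT libraries, also without overlap (log2 fold change 0.31 ± 0.12, adjusted p = 0.542 by edgeR). Rps15a was at 101, 89.99 and 104.5 CPM in KO and 86.3, 76.9 and 73.3 CPM in WT libraries, a log2 fold change of 0.32 ± 0.12 (adjusted p = 0.548 by edgeR). All 5 rows were named for their unadjusted p after their values were seen, except Rps27l and Rpl7, which belong to a paralog pair.

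The 5 largest log2 fold changes belonged to rows at low levels. Rps27 was at 4.03, 3.06 and 3.38 CPM in KO libraries, against 2.25, 1.60 and 1.90 CPM in WT libraries, so that the groups did not overlap. The log2 fold change was 0.86, with a 95% interval of -0.37 to 2.09 (adjusted p = 0.736 by edgeR). With the copies added to its row it was 0.04. In 1 fit of all 12 libraries, whose spread is shared with the sorted experiment, the own row passed (adjusted p = 0.0358 by edgeR, where 1.76% of all genes passed), the single call of a ribosomal protein row under any setting. Rps12 (0.79), Rps13 (0.69), Rpl36a (0.62) and Rpl10 (0.53) had means of 2.98 to 18.7 CPM in either group. With copies added their log2 fold changes were 0.08, 0.19, 0.32 and 0.11. At the other end stood Rps19bp1 (-0.18), Rpl23a (-0.16), Rpl8 (-0.07), Rpsa (-0.07) and Rpl11 (-0.05), and Rpl23a turned to 0.29 with its copies added. With copies added to every parent, 82 rows were tested and 0 passed, where 0.00714% of all genes did. Of these 82 rows 68 were above 0 (50.3% of all genes), with a median of 0.13, and 10 had an unadjusted p under 0.05 (8.35% of all genes).

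Rpsa, the small subunit protein also known as the laminin receptor precursor, was at 248, 248 and 264 CPM in KO and 281, 280 and 235 CPM in WT libraries. Rplp0, the stalk protein on which P1 and P2 assemble, was at 1155, 1061 and 1077 CPM in KO and 953, 1062 and 946 CPM in WT libraries, a log2 fold change of 0.15 ± 0.071 (SE). Its partners Rplp1 and Rplp2 had 0.10 and -0.01. Rps6, the S6 kinase substrate, had 0.05 ± 0.097, Rps3, which lines the mRNA entry, 0.08 ± 0.12, and Rps19, mutated in Diamond-Blackfan anaemia in humans, -0.02 ± 0.10. Rpl5 and Rpl11, which bind Mdm2 when ribosome assembly fails, had 0.18 ± 0.24 and -0.05 ± 0.20. Rps27a, made as a fusion with ubiquitin, had 0.22 ± 0.16, Rpl3 0.09 ± 0.15, Rpl13a 0.12 ± 0.15 and Rpl38 0.10 ± 0.14. The groups overlapped for every gene of this paragraph.

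**Figure D4:**
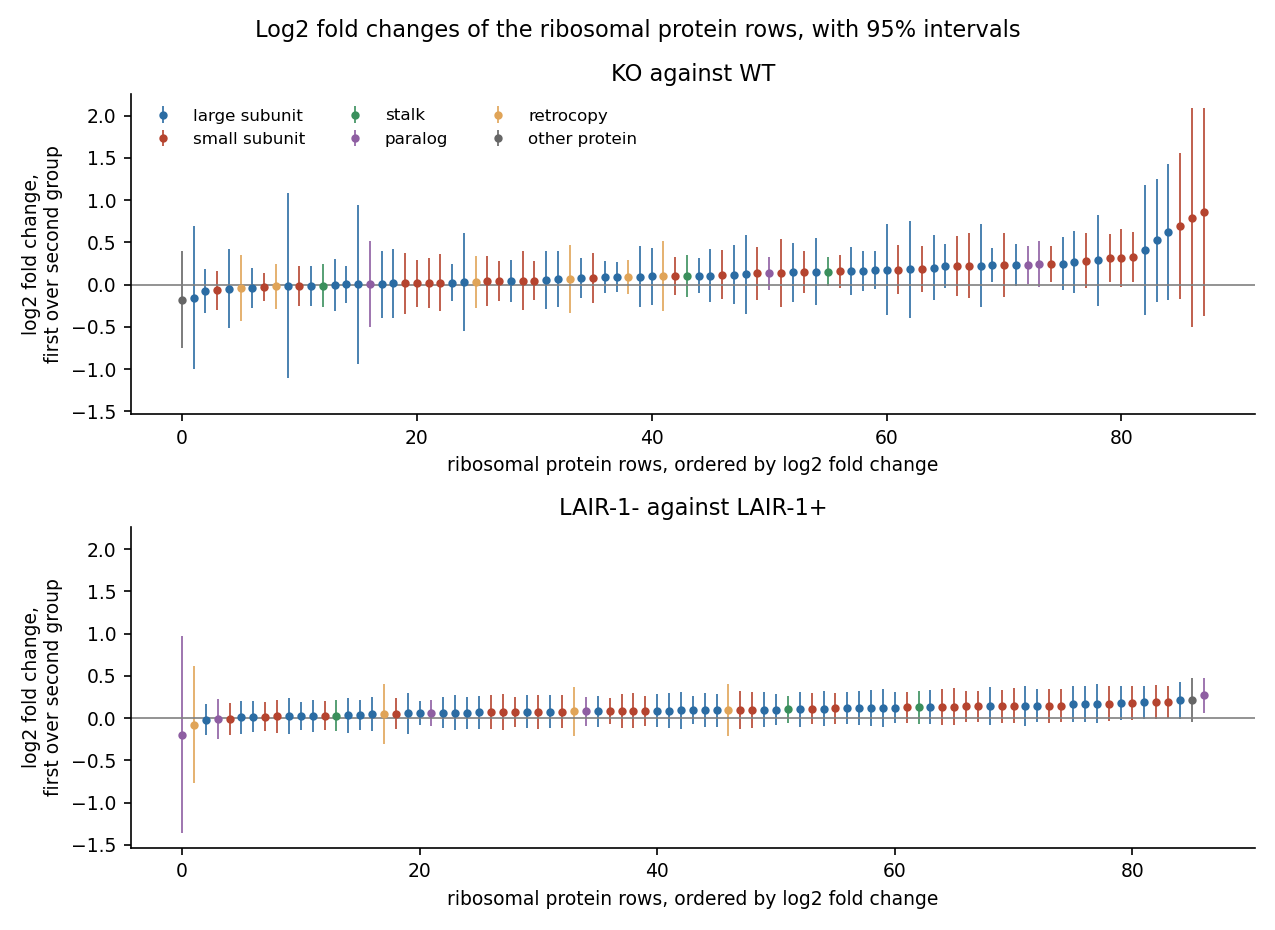
Log2 fold change with its 95% interval (vertical axis) for every tested ribosomal protein row, ordered from lowest to highest (horizontal axis), KO over WT (top, 88 rows) and LAIR-1- over LAIR-1+ (bottom, 87 rows). Colours mark the class of the row. Most rows lie slightly above 0 in both panels, and the wide intervals at the right of the top panel are rows with few counts such as Rps27.

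Between LAIR-1- and LAIR-1+ cells, all 87 rows were tested and again none passed, with the rows close together. By edgeR over 14261 genes, 0 of 87 rows passed at an adjusted p of 0.05, where 4.01% of all genes did (1.3% higher in LAIR-1- and 2.71% lower). DESeq2 also called 0 of 87, where 6% of all genes passed, and 4 rows had an unadjusted p under 0.05, where 14.9% of all genes did. By edgeR without adjustment 2 rows, Rps27l and Rps28, had p under 0.05, against 15.4% of all genes tested, and both were higher in LAIR-1-, where 6.07% of all genes were. The log2 fold change (LAIR-1- over LAIR-1+) was above 0 for 82 of 87 rows, with a median of 0.09, where 51% of all genes were above 0, with a median of 0.01. Large subunit rows had a median of 0.09 (42 of 43 above 0) and small subunit rows 0.10 (30 of 31). The 95% interval lay within 1.5-fold in both directions for 85 of 87 rows.

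The groups overlapped for every one of the 87 rows, where 9.64% of all genes lay higher without overlap and 11.3% lower. The rows moved as a block from library to library. The median row lay at 0.05, 0.20 and -0.09 (log2, against its mean over the 6 libraries) in the LAIR-1- libraries, and at -0.08, -0.15 and 0.09 in the LAIR-1+ libraries. Of the 87 rows, 84 were above their mean in LAIR-1- 8 and 86 in LAIR-1+ 3, but 3 in LAIR-1- 10, 3 in LAIR-1+ 1 and 1 in LAIR-1+ 2. The difference between groups was smaller than this spread within them. Without LAIR-1- 8 the median log2 fold change was 0.02 and 54 of 87 rows were above 0 (49.4% of all genes), with 0 at an unadjusted p under 0.05 (13.5%). Without LAIR-1+ 2 it was 0.04, with 67 of 87 rows above 0 (51.2%). Without LAIR-1+ 3 it was 0.17, with 85 of 87 rows above 0 (50.6%) and 18 at an unadjusted p under 0.05 (15.4%). Without LAIR-1- 10 it was 0.16, with 86 of 87 above 0 (49.8%) and again 18 (15.4%). With copies added to their parents 83 rows were tested and 0 passed (4.06% of all genes), 79 were above 0 (51%) and 3 had an unadjusted p under 0.05 (15.6%).

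Rps27l, the paralog of Rps27 and a p53 target gene, had the largest log2 fold change. It was at 423, 488 and 389 CPM in LAIR-1- libraries, against 347, 329 and 402 CPM in LAIR-1+ libraries. LAIR-1+ 3 lay within the LAIR-1- range. The log2 fold change was 0.27, with a 95% interval of 0.06 to 0.48 (adjusted p = 0.186 by edgeR). Next came Rps19bp1 (0.21), Rpl38 (0.21), Rps28 (0.19) and Rps14 (0.19). Rpl38, a large subunit protein needed for translation of Hox mRNAs in mouse embryos, was at 285, 340 and 269 CPM in LAIR-1- and 253, 232 and 288 CPM in LAIR-1+ libraries. Rps28 was at 200, 212 and 176 CPM in LAIR-1- and 166, 162 and 186 CPM in LAIR-1+ libraries (adjusted p = 0.314 by edgeR). The lowest values were those of Rpl39l (-0.20), Rpl36a-ps1 (-0.08), Rpl28 (-0.02), Rpl22l1 (-0.02) and Rps20 (-0.02).

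Genes with well-known roles lay within the same narrow range. Rplp0 was at 1283, 1407 and 1221 CPM in LAIR-1- and 1195, 1139 and 1304 CPM in LAIR-1+ libraries (0.10 ± 0.073, log2 fold change and SE). Rplp2 had 0.13 and Rplp1 0.03. Rpsa had 0.02, Rps6 0.08, Rps3 0.07, Rps19 0.08 and Rps27a 0.14. Rpl5 and Rpl11 had 0.13 and 0.09, Rpl10 0.04, Rpl3 0.03, and Rpl13a, part of an interferon-gamma response complex in human monocytes, 0.17. Of the 86 rows tested in both comparisons, 69 had a log2 fold change above 0 in both and 0 below 0 in both. With 74 of 88 and 82 of 87 rows above 0 in the single comparisons, most rows had to be above 0 in both. The count is thus no measure of agreement, and no such count over all genes is given here. The comparisons share no library.

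The paralog pairs were described by the log2 ratio of counts of paralog to parent, with no test of its own. How often such ratios do not overlap between groups over all genes was not looked at, so non-overlap here is a description only. Rpl22l1 to Rpl22, a pair of RNA-binding proteins in which Rpl22 represses Rpl22l1 in mouse, was at -1.66, -1.85 and -1.77 in KO libraries, against -1.46, -1.58 and -1.42 in WT libraries. It was at -1.04, -1.10 and -1.11 in LAIR-1- libraries, against -0.97, -0.91 and -0.96 in LAIR-1+ libraries. The ratio was thus lower without overlap in KO and in LAIR-1- libraries, while Rpl22l1 itself had log2 fold changes of 0.00 ± 0.21 and -0.02 ± 0.11 and Rpl22 of 0.26 ± 0.15 and 0.12 ± 0.10 (SE, KO over WT before LAIR-1- over LAIR-1+). Neither gene passed in either comparison.

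Rps27l to Rps27 was at 0.13, 0.20 and 0.22 in LAIR-1- libraries, against -0.00, -0.04 and 0.00 in LAIR-1+ libraries, again without overlap. In KO libraries it was 6.21, 6.73 and 6.69, against 6.86, 7.53 and 7.13 in WT libraries, lower without overlap. This opposite direction holds for the own rows alone. The parent row held few counts in KO and WT libraries, 0.672% to 1.60% of its family's counts. With copies added, Rps27l had a log2 fold change of 0.24 in KO over WT, above the value of Rps27 with copies given earlier. Rpl36al to Rpl36a, also with a parent row of few counts there, was at 4.94, 5.23 and 5.17 in KO and 5.87, 5.52 and 5.46 in WT libraries, again lower without overlap. It overlapped at 1.30, 1.30 and 1.46 in LAIR-1- and 1.42, 1.48 and 1.36 in LAIR-1+ libraries. Rpl7l1 to Rpl7 overlapped between the groups of both comparisons. Rpl10l and Rpl3l were not analysed here, and Rps4l is listed as a pseudogene.

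The starts of these genes were searched for the pyrimidine run of TOP mRNAs, in promoters of RefSeq on GRCm38.p6. Of 82 genes, 62 were matched. A run of at least 8 C or T on the coding strand touching the 15 bases on either side of the annotated start was found for 31 of 62 (50%), against 20.4% of all 27025 genes of that table. A rule tried first, a run of at least 6 opening with C after a purine, gave 27 of 62 (43.5%) against 22.3%, and the second was chosen after the first was seen. A match is a description of letters and no site. Windows of 30 bases are shown for genes named above, from 10 bases before the annotated start. Only the longest run is in capitals, and only where it has at least 8 bases:
Rps6: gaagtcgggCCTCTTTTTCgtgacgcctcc
Rpl38: aagcctcgTTCTTTCCCCgttctcttcggt
Rps27: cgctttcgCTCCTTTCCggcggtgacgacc
Rps27rt: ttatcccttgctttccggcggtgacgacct

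The windows lie at chr4:86857348-86857377 (minus strand) for Rps6, chr11:114668570-114668599 (plus strand) for Rpl38, chr3:90213629-90213658 (minus strand) for Rps27 and chr9:114982720-114982749 (minus strand) for Rps27rt. Rps27 has a run of 9 there, and the longest run at its retrocopy's start is 6.

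Ribosomal protein genes whose symbols lack the prefix were looked at beside the members. Fau, which encodes the small subunit protein eS30 fused to a ubiquitin-like protein, had log2 fold changes of 0.07 ± 0.15 (KO over WT) and 0.06 ± 0.090 (LAIR-1- over LAIR-1+). Rack1, the scaffold on the small subunit, had 0.09 ± 0.071 and 0.11 ± 0.094 (SE). Neither passed. The 78 mitochondrial ribosomal protein genes, which serve the separate mitochondrial ribosome, had a median of -0.04 in KO over WT (32 of 78 above 0) and 0.08 in LAIR-1- over LAIR-1+ (63 of 78 above 0), and none passed by edgeR in either, with 6 and 8 at an unadjusted p under 0.05, or 7.69% and 10.3%, against 8.37% and 15.4% of all genes.

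Ribosome assembly genes had larger fold changes than the ribosomal proteins in KO against WT, though none passed by edgeR. The median log2 fold change was 0.35 for large subunit assembly (30 of 36 above 0) and 0.27 for small subunit assembly (32 of 37 above 0). Without overlap between the groups, 16 of 36 and 12 of 37 were higher in KO, or 44.4% and 32.4%, where 8.2% of all genes were, and 2 and 0 were lower, where 7.97% of all genes were. Npm1, a nucleolar chaperone of assembly, was at 228, 274 and 283 CPM in KO libraries, against 164, 176 and 182 CPM in WT libraries (0.59 ± 0.11, adjusted p = 0.252 by edgeR). Ncl, the nucleolar protein nucleolin, was at 680, 792 and 747 CPM in KO and 537, 552 and 538 CPM in WT libraries (0.45 ± 0.075, adjusted p = 0.214 by edgeR). Fbl, the rRNA methyltransferase, overlapped between the groups (0.23 ± 0.24). By edgeR 0 of the 196 tested genes of all 10 lists passed, with 44 at an unadjusted p under 0.05, or 22.4%, against 8.37% of all genes. DESeq2 gave 176 of them an adjusted p and called 12 higher, Npm1 and Ncl among them, and 1 lower, Pes1, where it called 4.22% of all genes. Pes1, of the large subunit assembly list, went against that list's median, with a log2 fold change of -1.13 (adjusted p = 8.8e-06 by DESeq2). By edgeR the lowest log2 fold change of that list was also -1.13.

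In LAIR-1- against LAIR-1+ the same 2 lists had medians of 0.08 (33 of 36 above 0) and 0.05 (29 of 37), close to that of the ribosomal proteins. Here 4 of the 196 list genes passed, 2 higher and 2 lower, or 2.04%, less than the 4.01% of all genes. Myc was at 89.0, 94.4 and 92.2 CPM in LAIR-1- libraries, against 125, 111 and 121 CPM in LAIR-1+ libraries, a log2 fold change of -0.37 ± 0.076 (adjusted p = 0.0175 by edgeR). Mxd1, a partner of Max that opposes Myc, also fell in LAIR-1- cells (-0.59 ± 0.13, adjusted p = 0.0313 by edgeR). Eef2k, the kinase that restrains elongation factor 2, rose (0.49 ± 0.12, adjusted p = 0.0437 by edgeR), as did Hnrnpa1, an RNA-binding protein with a TOP mRNA (0.35 ± 0.086, adjusted p = 0.0437 by edgeR). Without LAIR-1+ 1 or LAIR-1- 10 none of the 196 passed. Without LAIR-1+ 2 it was 0 higher and 1 lower, without LAIR-1- 8 it was 0 higher and 2 lower, and without LAIR-1+ 3 or LAIR-1- 7 it was 1 in each direction. The shares of all genes that passed with a library left out are not given here.

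In KO against WT, Myc was at 96.7, 144 and 148 CPM in KO libraries and 83.5, 86.2 and 87.6 CPM in WT libraries, without overlap and without passing (0.60 ± 0.18, adjusted p = 0.44 by edgeR). Mtor, the kinase of mTORC1, had -0.60 ± 0.28 in KO over WT and -0.05 ± 0.12 in LAIR-1- over LAIR-1+, and Larp1 had 0.25 ± 0.11 and 0.02 ± 0.065 (SE). The elongation factors Eef1a1 and Eef2, both with TOP mRNAs, had -0.05 ± 0.11 and -0.13 ± 0.12 in KO over WT and -0.11 ± 0.063 and -0.04 ± 0.067 in LAIR-1- over LAIR-1+. None of these genes passed except Myc in LAIR-1- against LAIR-1+. Of the remaining lists, translation initiation factors had medians of 0.15 (26 of 34 above 0) in KO over WT and 0.07 (28 of 34) in LAIR-1- over LAIR-1+, elongation factors 0.09 (6 of 9) and 0.11 (7 of 9), and RNA polymerase I with its factors 0.04 (9 of 15) and 0.06 (9 of 15). Other mRNAs with a TOP tract had 0.08 (17 of 26) and 0.06 (21 of 26), ribosome quality control genes 0.16 (15 of 19) and 0.02 (11 of 19), the mTORC1 pathway -0.06 (10 of 24) and -0.02 (10 of 24), and the MYC family -0.23 (4 of 10) and -0.34 (3 of 10). The MYC family list joins Myc, Mycn and Mycl with genes such as Mxd1 that oppose Myc, so its median gives no direction of Myc activity. In KO over WT its values ranged from -1.03 to 7.10, and none of its genes passed. In the fit of all 12 libraries Mycl had 7.10 and passed (adjusted p = 0.0109 by edgeR, where 1.76% of all genes passed). In LAIR-1- against LAIR-1+, 7 of its 10 genes had an unadjusted p under 0.05 by edgeR, where 15.4% of all genes did. Without overlap 5 were lower and 1 higher, where 11.3% and 9.64% of all genes were.

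**Figure D5:**
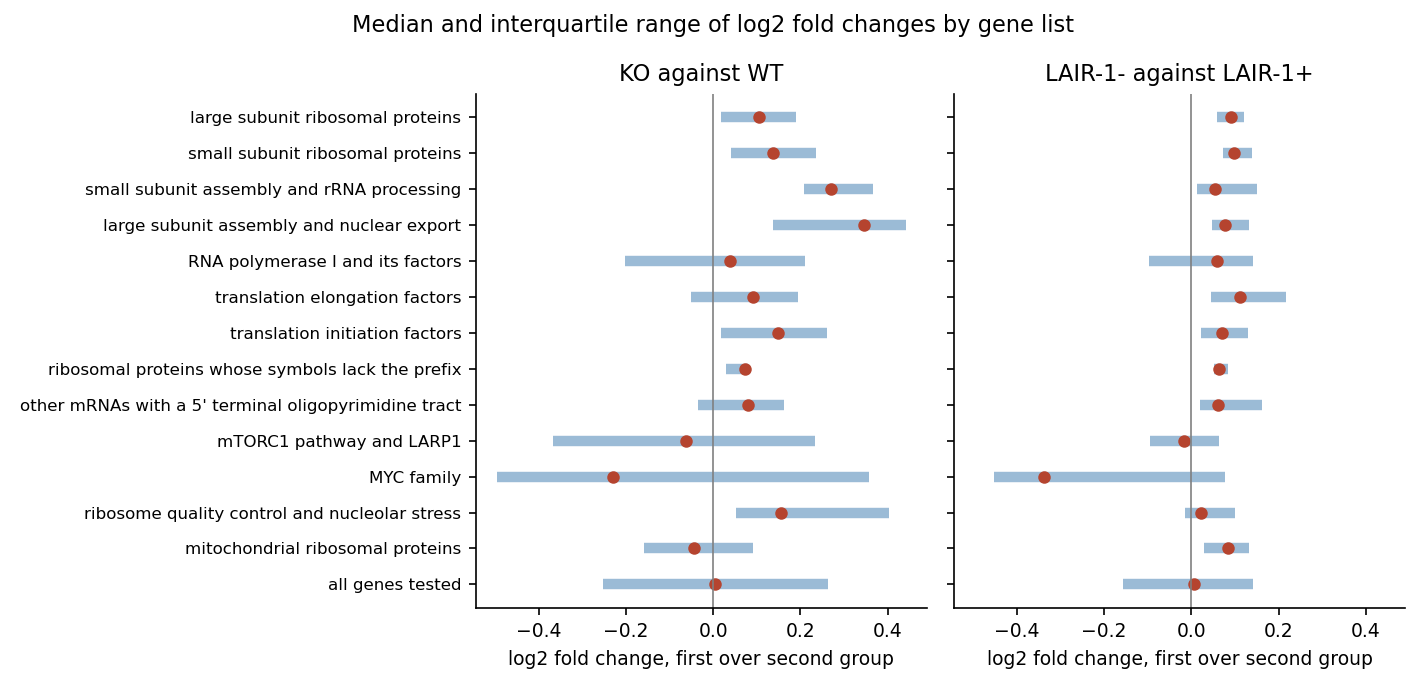
Median (red point) and interquartile range (blue bar) of the log2 fold changes (horizontal axis) of each gene list, for KO over WT (left) and LAIR-1- over LAIR-1+ (right). The assembly lists lie at 0.27 and 0.35 on the left, right of the ribosomal protein rows, and near them on the right.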

How the data were processed

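RNA of sorted mouse lung ILC2s was sequenced in 12 libraries. For each experiment the authors deposited estimated counts, with CPM for the same genes. The deposited CPM is the count over a library total plus 0.0001. Per the submitters' processing notes, bcl2fastq 2.17.1.14, Partek and STAR 2.5.3a were used with mm10. The counting tool and annotation are not stated in the sources used here. Of the values above 0 on ribosomal protein rows, 96.8% (KO and WT) and 92.5% (sorted) were not whole within 0.001, against 54.0% and 48.5% of all values.

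Counts were rounded, then fitted separately for each experiment (6 libraries) with edgeR 4.0.16 (R 4.3.3): filterByExpr, TMM scaling, quasi-likelihood F test, Benjamini-Hochberg adjustment over all genes tested, threshold 0.05. CPM values in the text are TMM-scaled except marker sums and the level of Rpl39l in KO and WT libraries, which use library totals. Shares are of all listed counts. Fold changes are KO over WT and LAIR-1- over LAIR-1+; SEs and 95% intervals come from the same F statistic. The scripts were tested on simulated data. A first limit there, on the share of large changes recovered, was missed for KO against WT and was replaced, once that was seen, by limits on the error of the estimates, on false calls and on the order of recovery by fold. An absence of calls in KO against WT is thus weaker evidence than in the sorted fractions. DESeq2 gave no adjusted p to some genes, which are left out of its shares. Copies were found with GENCODE M21 transcripts, chosen as a reference here, whose symbols matched 96.7% and 100% of the ribosomal protein rows. The sum of copies and parents was chosen after seeing the data. Alternatives used DESeq2 1.42.0, limma 3.58.1, other scalings and filters, all 12 libraries, and each library left out.

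Named were the 5 highest and 5 lowest log2 fold changes per comparison, any row that passed, the 3 highest and lowest levels per coding length, the paralog pairs and members with textbook roles, plus listed genes that passed and a few fixed by name. The members and lists were chosen with earlier results of these data known.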

Additional observations from a re-analysis of the deposited data

How the results depend on the processing

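No ribosomal protein row passed with another scaling (median-of-ratios or library totals), without a filter, with a filter at a mean of 50 CPM, by DESeq2, limma-voom or limma-trend (offsets 1 and 0.1), with any library left out, or with copies added to their parents, an alternative chosen after seeing the data. In 1 fit of all 12 libraries 1 row passed in KO against WT (Rps27), which is also 1 gene of the paralog pairs. The members' median log2 fold change with a library left out was 0.04 to 0.16 (KO against WT) and 0.02 to 0.17 (LAIR-1- against LAIR-1+). The difference in summed share was 0.096 percentage points in KO against WT (0.0387 to 0.152 with a library left out, 0.183 with copies added) and 0.281 in LAIR-1- against LAIR-1+ (0.114 to 0.436). No paired analysis was done, because the labels name no pairing. Whether libraries of the groups compared came from the same mice is not known. Of the other lists in KO against WT, 0 genes passed in the main setting, 2 higher and 1 lower with a mean of at least 50 CPM, 12 and 1 by DESeq2, and 8 and 2 in the fit of 12 libraries. In LAIR-1- against LAIR-1+, where 2 higher and 2 lower passed, it was (higher, then lower) 3 and 1 with library totals, 0 and 2 without a filter, 1 and 1 at a mean of 50 CPM, 5 and 3 by DESeq2, 4 and 2 by limma-trend with offset 1, 3 and 2 with offset 0.1, 0 and 0 in the fit of 12 libraries, and 0 to 1 higher and 0 to 2 lower with a library left out. Of all genes in KO against WT, 0.00706% passed in the main setting, 4.22% by DESeq2 and 1.76% in the fit of 12 libraries. In LAIR-1- against LAIR-1+ it was 4.01% in the main setting and 6% by DESeq2. Shares of all genes for the other settings are not given here, so their counts cannot be read as many or few. The cause of the differences between settings was not tested.

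Some fold changes near 0 changed sign. In KO against WT this was so for Rpl22l1 (-0.00251 by limma-voom, -0.015 and -0.016 by limma-trend, -0.030 with copies added) and Rpl23a (0.29 with copies added). In LAIR-1- against LAIR-1+ it was so for Rpl22l1 (0.011 with library totals, 0.0010 and 0.0010 by limma-trend), Rps20 (0.011, 0.0014 and 0.0014 in the same settings) and Rpl28 (0.0050 with library totals). With a library left out the KO against WT ranges were -0.16 to 0.0049 for Rpl11, -0.17 to 0.083 for Rpl22l1, -0.41 to 0.038 for Rpl23a, -0.037 to 0.19 for Rpl3, -0.15 to 0.022 for Rpl8, -0.18 to 0.24 for Rpl9, -0.097 to 0.048 for Rplp2, -0.083 to 0.063 for Rps19, -0.31 to 0.071 for Rps19bp1 and -0.0057 to 0.082 for Rps6. The LAIR-1- against LAIR-1+ ranges were -0.023 to 0.11 for Rpl10, -0.097 to 0.081 for Rpl22l1, -0.072 to 0.048 for Rpl28, -0.035 to 0.078 for Rpl3, -0.0035 to 0.17 for Rpl37a, -0.65 to 0.018 for Rpl39l, -0.015 to 0.15 for Rpl7, -0.068 to 0.098 for Rplp1, -0.088 to 0.056 for Rps20, -0.016 to 0.16 for Rps27, -0.0091 to 0.16 for Rps4x and -0.047 to 0.099 for Rpsa. None of these rows passed in either direction. Groups of 3 libraries, and counts of 29.2 to 84.6 on the Rps27 row in KO and WT, limit what could be detected.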
